A study of Mus musculus with 10 samples.

Results

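Aminoacyl-tRNA synthetases were measured in mouse *Max*-null embryonic stem cells (ESCs) as 32 genes of the 18193 genes on the array with a probe set of their own, 19 for cytosolic enzymes and 13 for mitochondrial enzymes. The genes were chosen by symbol alone, from a list of 20 symbols of cytosolic enzymes such as *Aars* and *Farsa*, taken as they stand or with a 1 for a cytosolic enzyme and with a 2 for a mitochondrial enzyme. The mitochondrial genes *Ears2*, *Fars2* and *Pars2* have no such symbol in the list and are counted below among the other genes of tRNA charging. Together they had 65 of the 45037 probe sets. A gene with several probe sets, as 21 of them had, was read from the probe set with the highest mean over the 10 arrays, and 11 genes had only 1.

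A synthetase joins an amino acid to its tRNA, the step that fixes which amino acid a codon stands for, and cells use separate enzymes in the cytosol and in mitochondria for most amino acids. Many cytosolic synthetase genes are known targets of ATF4, the transcription factor of the integrated stress response, which binds C/EBP-ATF response elements when amino acids run short or the endoplasmic reticulum is stressed. MAX is the partner that MYC needs to bind the E-box CACGTG, and genes of protein synthesis and ribosome production are among the known targets of MYC.

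All arrays came from 1 male 129SV line of *Max*-null ESCs, in which both endogenous *Max* alleles are disrupted and a *Max* cDNA is expressed by the tetracycline-off system, so that doxycycline (Dox) turns MAX off. The untreated controls carry the same alleles and express the cDNA. In medium with leukaemia inhibitory factor (LIF) and serum, a first set of 5 arrays held untreated cells and cells after 1, 2, 3 and 4 d of Dox, and a second set of 3 arrays held untreated cells and cells after 6 and 8 d. A further 2 arrays held cells kept for 6 d in 2i+LIF, with inhibitors of MEK and GSK3β, without Dox or with 6 d of Dox. Each Dox time was 1 array, so a single time has no test. The sources used here do not say whether both untreated LIF+serum arrays stand for separate cultures, so the p-values speak only of the scatter among arrays, part or all of which may be technical.

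Values are on the log2 scale of robust multi-array analysis (RMA), and a fold is the ratio to the untreated array of that set. Array medians lay between 5.26 and 5.33 in LIF+serum and were 5.14 and 5.16 in 2i+LIF. The probe set of *Max* itself read 5.57, 5.53, 5.60, 5.07 and 5.20 in the first set, 5.74, 6.20 and 6.19 in the second, and 5.74 and 5.54 in 2i+LIF. Whether it reads the disrupted gene, the cDNA or both is unknown, so its values are no check of the labels. Stem cell markers had a mean level of 11.37 to 12.32 on all 10 arrays. Germ cell markers had 6.58, 8.91, 7.68, 10.3 and 11.29 from 0 to 4 d. In the second set they had 7.98 untreated, 12.1 at 6 d and 11.84 at 8 d. *Dazl*, *Ddx4*, *Stra8* and *Sycp3* each read lower at 2 d than at 1 d, out of the order of days, and the cause was not tested. The difference between the 3' and 5' control probe sets of *Actb*, a sign of RNA quality, was 0.41 to 0.56 in the first set, 0.88 to 1.46 in the second, and 0.78 and 0.76 in 2i+LIF. Dox 8 d had the highest mean level of the trophectoderm markers (6.91, with 5.60 to 6.20 in the first set and 6.56 in untreated 2i+LIF). The same held for the fibroblast markers (5.16, with 4.63 to 4.80 in the first set) and the primitive endoderm markers (5.37, with 4.70 to 5.23). Not all markers were higher at 8 d. *Eomes*, *Krt8* and *Krt18* had folds of 2.81, 3.94 and 6.21, but *Cdx2* and *Elf5* of 0.946 and 0.846. *Sox7* of the endoderm list (0.631) and *Thy1* and *Lum* of the fibroblast list (0.871 and 0.742) were also lower.

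The promoters of 24 of the 32 genes were in the RefSeq promoter table (GRCm38.p6, windows from 250 bases before to 50 after the transcription start). The core of the C/EBP-ATF response element, TGATGNAA on either strand, was in the window of 5 of them (20.8%) and in 4.51% of all 27025 genes with a window. All 5, *Aars*, *Gars*, *Iars*, *Tars* and *Yars*, were among the 8 listed ATF4 targets with a window. None of the 4 other cytosolic genes and none of the 12 mitochondrial genes with a window held it. The E-box CACGTG was in 4 windows, those of *Aars*, *Farsb*, *Iars* and *Tars*, and in 8.09% of all genes. *Aars*, *Iars* and *Tars* held both motifs, as did 81 of the 27025 genes (0.3%). The 2 motifs do not overlap in these windows, and a match is a run of letters, not a measured binding site.

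The 6 windows with a match are shown because they place the motifs of ATF4 and of MYC and MAX relative to the start, with each match in capitals, 5′ to 3′ along the gene's strand, and the transcript starting 30 bases before the end of each sequence (7 bases for *Farsb*). They are the stretches chr8:111033662-111033871 of *Aars*, chr13:49682030-49682159 of *Iars*, chr6:55037901-55038030 of *Gars* and chr4:129189803-129189932 of *Yars* on the plus strand, and chr15:11399629-11399758 of *Tars* and chr1:78488891-78488976 of *Farsb* on the minus strand.
Aars: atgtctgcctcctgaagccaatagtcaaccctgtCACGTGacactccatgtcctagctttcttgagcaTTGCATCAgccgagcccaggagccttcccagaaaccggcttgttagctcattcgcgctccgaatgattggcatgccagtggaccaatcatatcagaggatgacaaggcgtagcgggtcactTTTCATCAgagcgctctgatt
Iars: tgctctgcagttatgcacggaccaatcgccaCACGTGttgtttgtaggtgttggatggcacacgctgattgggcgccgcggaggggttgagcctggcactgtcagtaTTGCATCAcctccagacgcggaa
Tars: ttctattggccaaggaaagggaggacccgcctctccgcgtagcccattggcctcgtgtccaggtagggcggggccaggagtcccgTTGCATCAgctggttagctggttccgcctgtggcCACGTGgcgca
Gars: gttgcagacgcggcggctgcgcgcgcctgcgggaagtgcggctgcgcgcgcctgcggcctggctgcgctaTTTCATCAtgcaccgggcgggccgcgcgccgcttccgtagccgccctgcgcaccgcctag
Yars: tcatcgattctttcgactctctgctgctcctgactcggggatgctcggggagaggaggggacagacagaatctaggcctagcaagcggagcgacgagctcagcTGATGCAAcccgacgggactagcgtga
Farsb: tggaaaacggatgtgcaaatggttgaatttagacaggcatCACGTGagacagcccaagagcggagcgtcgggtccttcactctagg
In *Aars* the response element core was read as TTGCATCA and as TTTCATCA, both being its reverse complement. In *Iars* and *Tars* it was TTGCATCA, in *Gars* TTTCATCA, and in *Yars* TGATGCAA.

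The first question was which synthetase genes moved with days without MAX in LIF+serum. Many of the cytosolic genes were higher from 2 to 4 d and near or below the level of their own untreated array at 6 and 8 d. Against the first untreated array, 7 of the 19 were at least 1.5-fold higher at 6 d and 2 at 8 d. The mitochondrial genes were mostly lower at every time, and so were most of all genes (at 4 d 10 of 13, and 10573 of 18193). In such bulk samples fewer cells with a transcript and less of it per cell cannot be told apart. Over all 8 arrays 1 slope per day was fitted, with the array set as a covariate. By limma's adjusted p at 0.05, 0 of the 19 cytosolic genes rose and 0 fell, while over all genes 5.75% rose and 5.33% fell. Before adjustment 0 of the 19 rose and 2 fell (*Farsa* and *Kars*), beside 13.2% and 14.8% of all genes. Of the 13 mitochondrial genes 0 rose and 3 fell by adjusted p. The median slope was -0.011 per day on the log2 scale for the cytosolic genes, -0.061 for the mitochondrial genes and -0.009 for all genes.

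The arrays from 0 to 4 d alone gave another count. Within the first set, 7 of the 19 cytosolic genes rose and 0 fell (adjusted p from limma), while over all genes 4.31% rose and 2.90% fell. They were *Aars*, *Cars*, *Iars*, *Lars*, *Mars1*, *Nars* and *Tars*, for alanine, cysteine, isoleucine, leucine, methionine, asparagine and threonine. Their slopes ran from 0.30 per day for *Tars* (SE 0.07, adjusted p = 0.0432) to 0.46 for *Cars* (SE 0.07, adjusted p = 0.0169), all from limma. Each array of the first set was then left out in turn, a step chosen after seeing the data. Without the untreated, the Dox 3 d or the Dox 4 d array, 0 of the 19 passed, and 0 of the 18193 genes did. At an unadjusted p under 0.05, 9, 8 and 8 cytosolic genes still had a positive slope there (beside 9.84%, 10.1% and 9.15% of all genes), with 9 in the whole first set (beside 12.5%). Without Dox 1 d the count was 6, and without Dox 2 d it was 7.

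**Figure D1:**
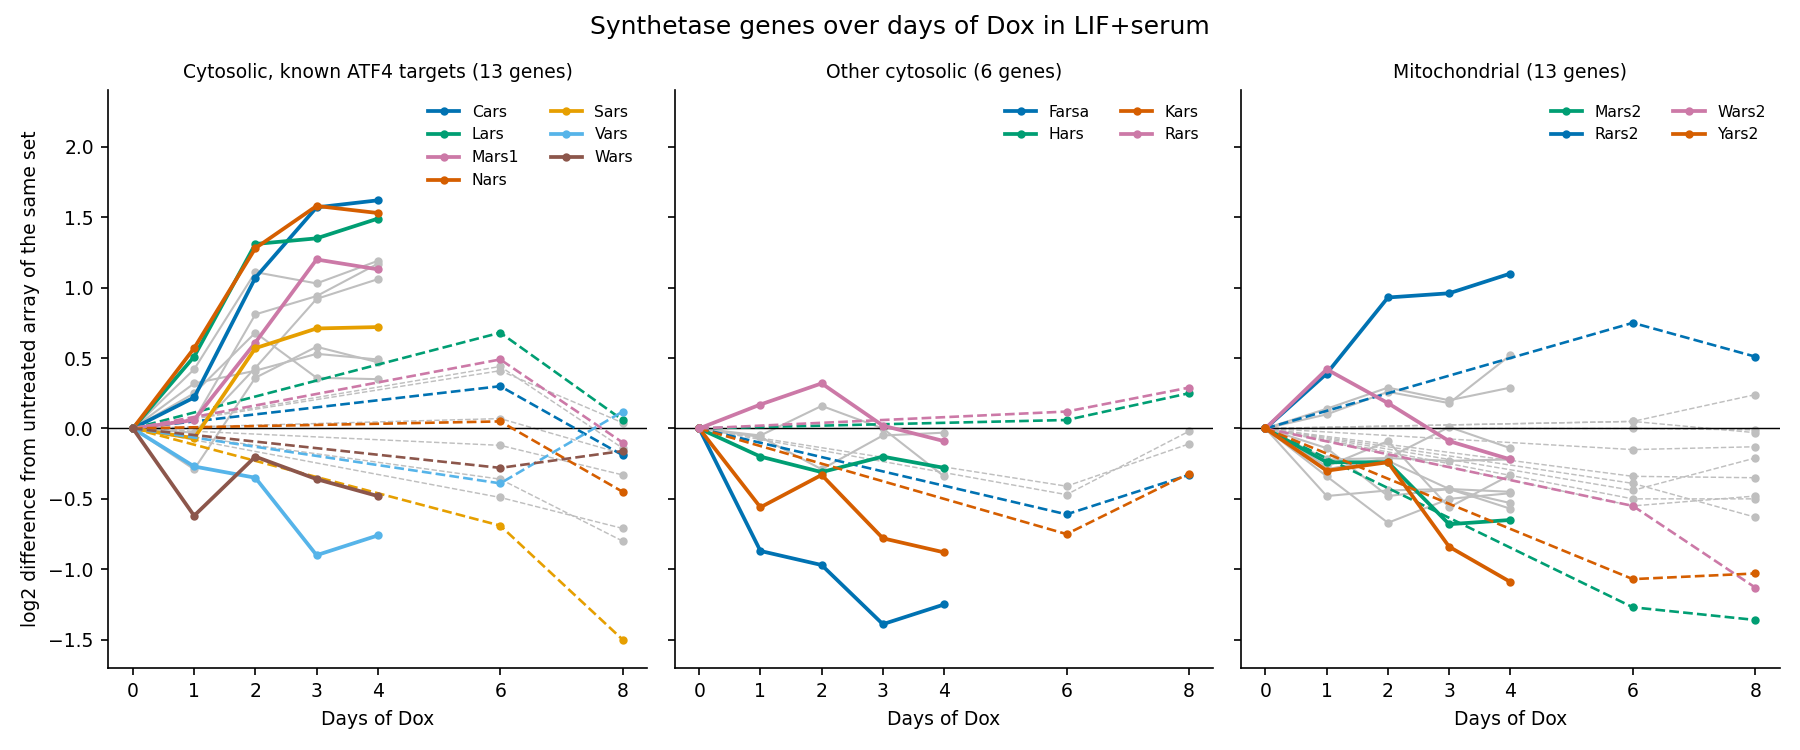
Each line is 1 gene, plotted as its log2 difference from its own set's untreated array against days of Dox, with solid lines for the first array set and dashed lines for the second, and with grey lines for genes not named in the key. Of the 13 listed ATF4 targets 11 lie above 0 at 4 d (*Vars* and *Wars* do not) and 10 lie below 0 at 8 d, while the mitochondrial genes other than *Rars2*, *Iars2*, *Nars2* and *Lars2* lie below 0 at 4 and 8 d.

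A fit that allowed a curve gave a larger count of cytosolic genes than the line. It tests for any change with time, and the curved term alone was not tested. With a quadratic term added, a fit chosen after seeing the data, 10 of the 19 cytosolic genes and 4 of the 13 mitochondrial genes passed when both terms were tested together with limma, against 19.8% of all genes. The 10 were *Aars*, *Cars*, *Farsa*, *Iars*, *Kars*, *Lars*, *Mars1*, *Nars*, *Sars* and *Vars*, with adjusted p from 0.00721 for *Lars* to 0.0453 for *Vars*. When each set had its own slope, also chosen after seeing the data, the difference between both slopes passed for 0 of the 32 genes and for 1 of the 45037 probe sets (limma, lowest adjusted p among the 32 genes 0.115, for *Cars*). At an unadjusted p under 0.05 it did for 13 genes, 12 of them cytosolic, and for 5878 probe sets. Array set and time range cannot be told apart, because 1 to 4 d lie in the first set and 6 and 8 d in the second.

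*Cars*, the cysteine enzyme, read 9.37, 9.60, 10.44, 10.94 and 11.00 from 0 to 4 d. In the second set it read 9.46 untreated, 9.76 at 6 d and 9.27 at 8 d, and in 2i+LIF 10.82 untreated and 10.27 with Dox. The 2, 3 and 4 d arrays were above every other LIF+serum array, and both untreated LIF+serum arrays differed by only 1.06-fold. Its fold was 3.08 at 4 d, and 0.876 at 8 d (slope over all 8 arrays 0.10 per day, SE 0.07, adjusted p = 0.455 from limma).

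*Lars*, the leucine enzyme and itself a sensor of leucine for the mTORC1 pathway, read 10.28, 10.79, 11.59, 11.64 and 11.78 from 0 to 4 d, then 11.03 untreated, 11.71 at 6 d and 11.09 at 8 d in the second set. Against the second untreated array it was the only cytosolic gene at least 1.5-fold higher at 6 d, and against the first 1 of 7. Its folds were 2.82 at 4 d, 1.60 at 6 d and 1.04 at 8 d, with a slope over all 8 arrays of 0.11 (SE 0.06, adjusted p = 0.314 from limma). Its level on the second untreated array was 1.68-fold that on the first, and against the first its folds were 2.68 at 6 d and 1.75 at 8 d.

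*Iars*, the isoleucine enzyme, read 10.79, 10.85, 11.60, 11.73 and 11.96, then 11.58, 11.99 and 11.62, and its untreated arrays differed by 1.72-fold. *Mars1*, the methionine enzyme that also charges the initiator tRNA, read 10.91, 10.97, 11.53, 12.11 and 12.04, then 11.23, 11.72 and 11.14. *Iars* had its largest step between 1 and 2 d, and *Mars1* had its largest steps between 1 and 3 d. At 4 d they were 2.25-fold and 2.18-fold the untreated level. Their slopes over all 8 arrays were 0.09 (SE 0.05, adjusted p = 0.338) and 0.08 (SE 0.06, adjusted p = 0.421) from limma.

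*Nars*, *Tars*, *Aars* and *Sars* are described for their values at 4 d, which were seen first. *Nars*, the asparagine enzyme, read 10.82, 11.39, 12.09, 12.40 and 12.34, then 11.45, 11.50 and 11.00, a fold of 2.88 at 4 d and of 0.731 at 8 d (1.13 against the first untreated array). *Tars*, the threonine enzyme, read 10.11, 10.53, 11.21, 11.14 and 11.30, then 10.64, 10.71 and 10.46. *Aars*, the alanine enzyme, had no higher level at 1 d (11.19, from 11.22 untreated) and was 2.08-fold higher at 4 d. Second probe sets of *Aars*, *Iars* and *Nars* gave close folds at 4 d, 2.02, 2.38 and 2.74. The second probe set of *Cars*, much dimmer with a mean of 6.16, gave only 1.33 at 4 d, and 1.30 at 8 d. The slope of that probe set in the first set was 0.14 (adjusted p = 0.208 from limma).

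*Sars*, the serine enzyme, took opposite sides in both sets. It read 11.23, 11.16, 11.80, 11.94 and 11.95 from 0 to 4 d, and 11.11 untreated, 10.42 at 6 d and 9.61 at 8 d. The fold was 1.64 at 4 d and 0.353 at 8 d, the lowest at 8 d of the 32 genes. Its second probe set gave 1.67 and 0.304. The slope was 0.22 in the first set (adjusted p = 0.083) and -0.08 over all 8 arrays (adjusted p = 0.465), both from limma. *Gars*, for glycine, and *Yars*, for tyrosine, had the same order, with folds of 1.41 and 1.39 at 4 d and of 0.576 and 0.612 at 8 d.

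**Figure D2:**
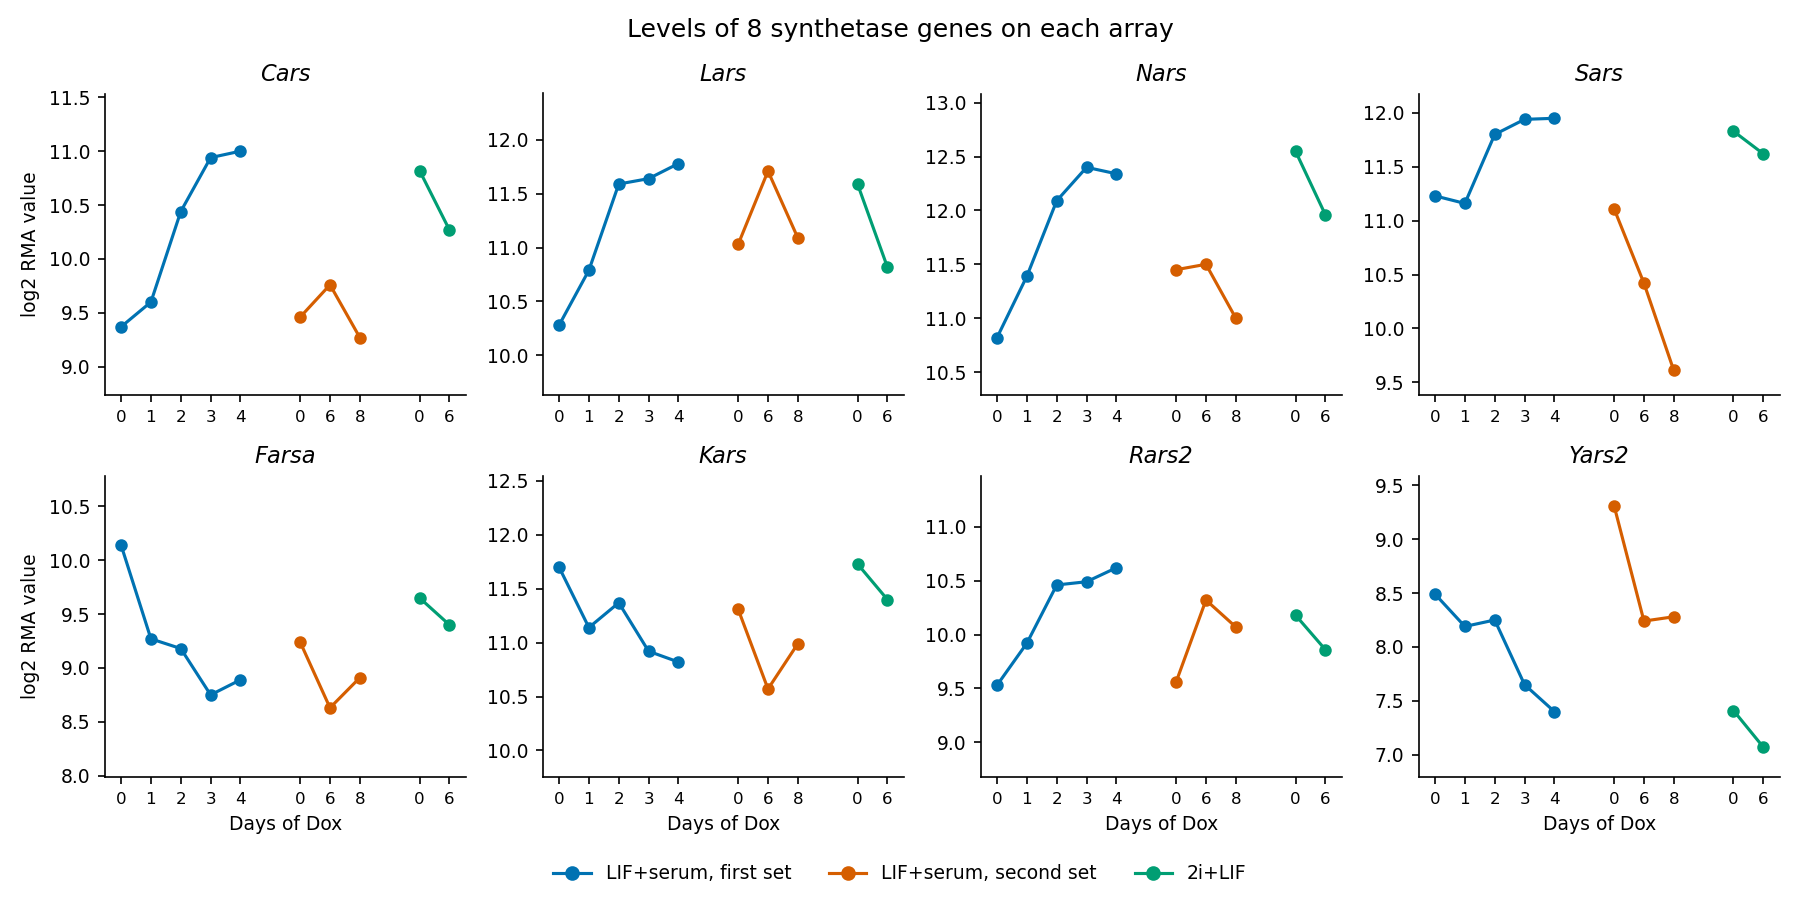
Levels (log2 RMA value) of 8 synthetase genes on the 10 arrays, with lines joining the arrays of 1 set and each axis spanning the same range of 2.8 log2 units. *Cars*, *Lars* and *Nars* climb to 3 or 4 d in the first set, *Sars* drops to 9.61 at 8 d, and *Farsa* and *Yars2* lie below their untreated array at every Dox time.

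The cytosolic genes that were lower at 4 d were mostly not among the listed ATF4 targets. *Farsa*, the catalytic subunit of the phenylalanine enzyme, read 10.14, 9.27, 9.18, 8.75 and 8.89, then 9.24, 8.63 and 8.91. It was below its untreated array at all 6 Dox times, with a fold of 0.381 at 3 d and of 0.420 at 4 d, but the second untreated array itself was 0.535-fold the first. Its slope was -0.11 (SE 0.05, adjusted p = 0.204), and -0.30 in the first set (SE 0.08, adjusted p = 0.0580), both from limma. *Farsb*, which makes the other subunit of the same enzyme, had folds of 0.788 at 4 d and 0.928 at 8 d.

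*Kars*, whose gene makes both the cytosolic and the mitochondrial lysine enzyme, read 11.70, 11.14, 11.37, 10.92 and 10.82, then 11.31, 10.57 and 10.99. It was lower than untreated at all 6 times, 0.544-fold at 4 d (slope -0.09, SE 0.04, adjusted p = 0.186 from limma). *Vars*, for valine, was the only listed ATF4 target at least 1.5-fold lower at 4 d (0.589), and was 1.09-fold the untreated level at 8 d. *Wars*, the tryptophan enzyme, which is also a known interferon-induced gene, had folds of 0.650 and 0.715 at 1 and 4 d. Its dimmest probe set fell by 0.19 per day (adjusted p = 0.0230 from limma), while the one used here had a slope of -0.04 (adjusted p = 0.559). The genes for histidine, glutamine and arginine, *Hars*, *Qars* and *Rars*, had folds between 0.721 and 1.25 at all 6 times.

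Counted at 1.5-fold, 0 cytosolic genes were higher at 1 d and 2 were lower, beside 8.85% and 6.85% of all genes. At 2 d it was 7 and 1 (10.1% and 10.1% of all genes), at 3 d 8 and 3 (13.1% and 12.6%) and at 4 d 8 and 3 (14.6% and 14.6%). At 6 d it was 1 and 3 (13.3% and 15.3%), and at 8 d 0 and 3 (14.1% and 14.0%). These last counts depend on the reference. Set against the first untreated array, 7 cytosolic genes were higher at 6 d (*Aars*, *Eprs*, *Iars*, *Lars*, *Mars1*, *Nars* and *Tars*) and 6 lower, beside 20.4% and 25.6% of all genes, and at 8 d 2 were higher (*Iars* and *Lars*) and 5 lower, beside 21.2% and 22.6%. For *Aars* this depended on the probe set, as its second one read 10.43 at 6 d and 11.05 on the first untreated array. Further probe sets of *Eprs*, *Iars* and *Nars* were higher at 6 d than on that array. The second untreated array against the first had 4 cytosolic genes higher (*Eprs*, *Iars*, *Lars*, *Nars*) and 3 lower (*Farsa*, *Qars*, *Wars*), with 14.8% and 12.7% of all genes. The cytosolic median fold was 0.981, 1.33, 1.45 and 1.39 from 1 to 4 d, 0.919 at 6 d and 0.898 at 8 d, beside medians of all genes between 0.933 and 0.974.

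The 8 genes that were higher at 4 d all belong to the 13 listed as known ATF4 targets, and 0 of the 6 other cytosolic genes were above 1 at 4 d. The median fold of the 13 was 1.04 at 1 d, 1.53, 1.89 and 2.08 at 2, 3 and 4 d, 1.03 at 6 d and 0.885 at 8 d (1.52 and 1.13 against the first untreated array). The 6 others had medians of 0.804 and 0.957 at 4 and 8 d. The 7 genes that rose in the first set are of the 13 too. The list was chosen with earlier results of these data known, and no test was run on it.

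Other ATF4 targets and stress genes were high over the same days. All 7 such genes (*Atf4*, *Ddit3*, *Trib3*, *Chac1*, *Asns*, *Psat1*, *Phgdh*) were at least 1.5-fold higher at 2, 3 and 4 d. Of all genes 10.1%, 13.1% and 14.6% were. The median of the 7 was 2.70 at 4 d. At 8 d, 4 of the 7 were at least 1.5-fold lower, beside 14.0% of all genes, with a median of 0.602. That count rests on the second untreated array, where 5 of the 7 stood 1.5-fold or more above the first. Against the first, 1 of the 7 was lower at 8 d (*Psat1*, 0.657-fold), 2 were higher, and the median was 1.21. The folds of 2 to 4 d rest in turn on the first untreated array. At 4 d *Psat1* (11.52) and *Phgdh* (10.90) read below the second one (11.63 and 11.03), while the others of the 7 read above it. *Atf4* read 10.56, 11.72, 12.14, 12.39 and 12.30, then 11.97, 12.06 and 12.02. Its second untreated array lay 2.66-fold above the first. *Chac1*, a glutathione-degrading enzyme that ATF4 induces, had folds of 10.0 at 4 d and 0.317 at 8 d, but its second untreated array was 3.83-fold the first, against which the fold at 8 d was 1.21. *Asns*, asparagine synthetase, had folds of 2.70 and 0.977 at these times. Over all 8 arrays 0 of the 7 rose or fell. In the first set *Atf4*, *Ddit3*, *Trib3*, *Chac1* and *Asns* rose (adjusted p from limma), beside 4.31% of all genes. Without the untreated, the Dox 3 d or the Dox 4 d array, 0 of the 18193 genes passed in that set. The part of these genes in the synthetase values was not tested.

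Of 5 known MYC targets, 3 fell over all 8 arrays (*Odc1*, *Cad* and *Nop56*, adjusted p from limma) and 0 rose, beside 5.33% and 5.75% of all genes. *Odc1*, the first enzyme of polyamine synthesis, had folds of 0.448 and 0.451 at 4 and 8 d (slope -0.18, SE 0.03, adjusted p = 0.0106 from limma). *Npm1* and *Ncl*, both of the nucleolus, did not pass. They were above their untreated array at 4 d, at 1.30-fold and 1.28-fold, and stood at 0.982-fold and 0.596-fold at 8 d.

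By enzyme class the cytosolic genes were alike in count. Class I and class II enzymes have unrelated catalytic folds, and 4 of 10 class I and 4 of 9 class II genes were at least 1.5-fold higher at 4 d, with medians of 1.33 and 1.41. Of the 7 measured enzymes of the multisynthetase complex, 3 were higher at 4 d (*Iars*, *Lars*, *Mars1*), 1 was lower (*Kars*), and the median was 1.27. *Eprs*, which joins the glutamate and proline enzymes in 1 chain, had folds of 1.60, 1.27 and 0.794 at 2, 4 and 8 d. The genes of its scaffold proteins were below 1 at 4 d, with *Aimp1* at 0.927-fold, *Aimp2* at 0.550-fold and *Eef1e1* at 0.558-fold.

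**Figure D3:**
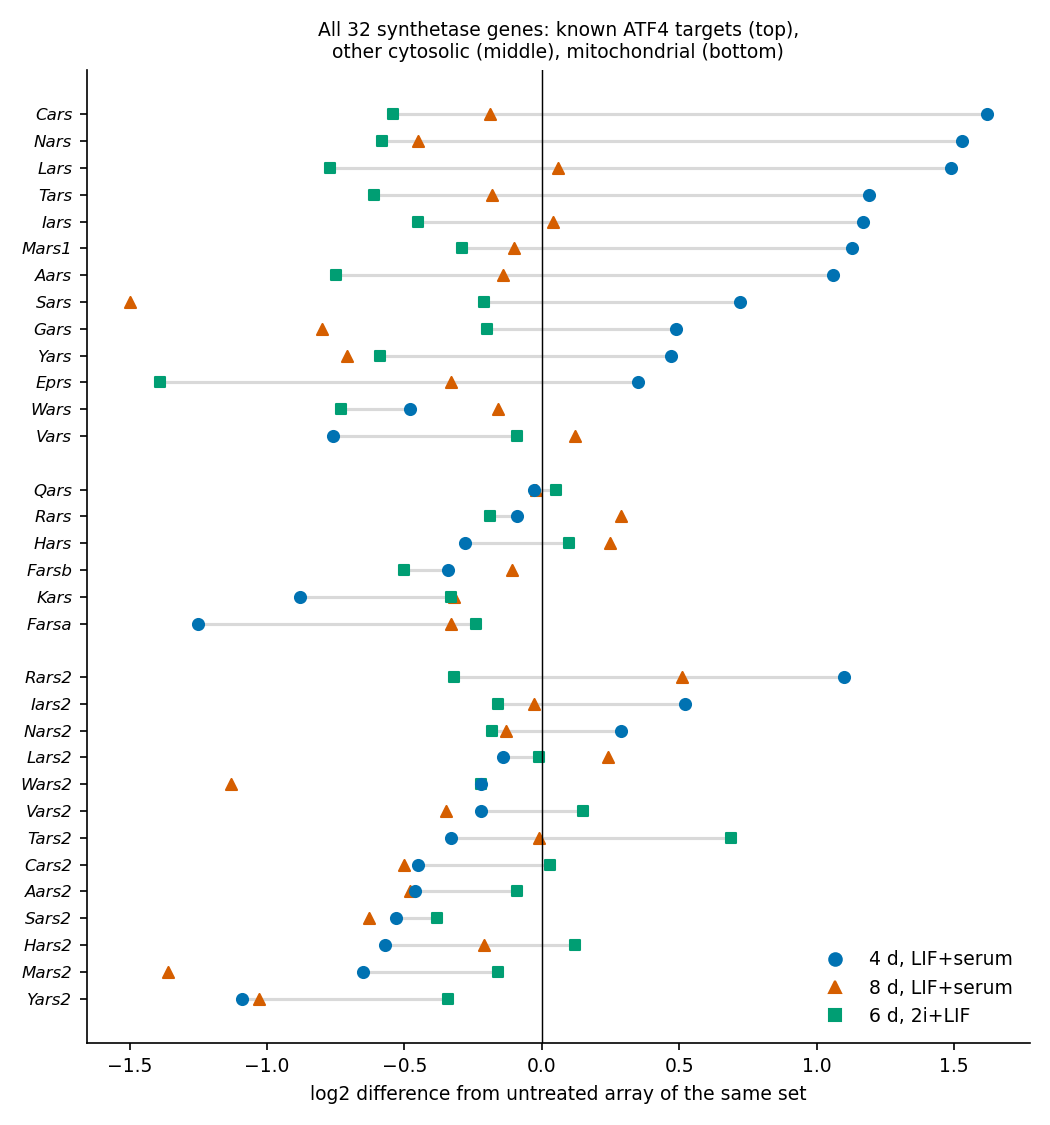
Log2 difference from the matching untreated array for all 32 genes at 4 d (circles) and 8 d (triangles) in LIF+serum and at 6 d in 2i+LIF (squares), 1 array each, ordered within 3 groups by the value at 4 d. Of the 13 listed ATF4 targets at the top, 11 lie above 0 at 4 d and 13 below 0 in 2i+LIF.

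Among the mitochondrial genes the median fold was below 1 at every time, from 0.742 at 3 d to 0.864 at 2 d. Medians of all genes lay between 0.933 and 0.974. At 1.5-fold, 1 mitochondrial gene was higher and 2 were lower at 4 d, beside 14.6% and 14.6% of all genes. At 6 d it was 1 and 2 (13.3% and 15.3%), and at 8 d 0 and 4 (14.1% and 14.0%). *Yars2*, the mitochondrial tyrosine enzyme, read 8.49, 8.19, 8.25, 7.65 and 7.40, then 9.31, 8.24 and 8.28, and 7.41 and 7.07 in 2i+LIF. It fell over all 8 arrays (slope -0.17, SE 0.03, adjusted p = 0.0161) and in the first set (slope -0.27, SE 0.06, adjusted p = 0.0392), both from limma, with folds of 0.470 at 4 d and 0.490 at 8 d. Its second probe set fell too (slope -0.18, adjusted p = 0.00868 from limma). On the probe set used, the second untreated level was 1.76-fold the first. The levels of 6 and 8 d there, far below their own untreated array, lie just below the untreated array of the first set. Without the array set term the slope of that probe set was -0.08 (adjusted p = 0.426 from limma). The second probe set read 8.59 and 8.43 on the untreated LIF+serum arrays, and 7.24 and 7.27 at 6 and 8 d, below both.

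*Mars2*, the mitochondrial methionine enzyme, read 4.60, 4.36, 4.36, 3.91 and 3.95, then 4.88, 3.61 and 3.52, and 5.73 and 5.56 in 2i+LIF. Every Dox array in LIF+serum was below both untreated arrays. It fell by 0.18 per day (SE 0.03, adjusted p = 0.00601 from limma), with folds of 0.639 at 4 d and 0.390 at 8 d. It was the only one of the 32 genes whose highest value was under 6, and its second, dimmer probe set had a slope of 0.02 (adjusted p = 0.765 from limma).

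*Wars2*, the mitochondrial tryptophan enzyme, read 6.17, 6.59, 6.35, 6.08 and 5.96, then 6.40, 5.85 and 5.28. The lowest value was that of 8 d. Its slope was -0.12 (SE 0.03, adjusted p = 0.0446 from limma) and its fold 0.860 at 4 d and 0.458 at 8 d. The call was lost without any 1 array other than the first untreated one, with adjusted p from 0.0597 to 0.432. Without the second untreated array none of the 3 genes passed (adjusted p 0.292 for *Mars2* and 0.260 for *Yars2*, from limma), nor did any of the 45037 probe sets.

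*Rars2*, the mitochondrial arginine enzyme, stood apart from the other mitochondrial genes. It read 9.53, 9.92, 10.46, 10.49 and 10.62, then 9.56, 10.32 and 10.07, and both untreated arrays were lower than every Dox array in LIF+serum. Its folds were 2.14 at 4 d, 1.69 at 6 d and 1.42 at 8 d. The slope was 0.12 over all 8 arrays (SE 0.04, adjusted p = 0.0946) and 0.28 in the first set (SE 0.06, adjusted p = 0.0412), both from limma, and it passed over all arrays without Dox 8 d (adjusted p = 0.0292). *Sars2* for serine (slope -0.09, SE 0.02, adjusted p = 0.0634) and *Aars2* for alanine (slope -0.08, SE 0.03, adjusted p = 0.157) did not pass in limma. *Sars2* read 8.24, 7.95, 8.01, 7.81 and 7.71, then 8.12, 7.73 and 7.49. *Aars2* read 8.19, 7.85, 7.52, 7.69 and 7.73, then 7.87, 7.32 and 7.40. Both were below their untreated array at every Dox time.

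The other mitochondrial genes moved less. *Cars2* lay between 0.705-fold and 0.742-fold of untreated at all 6 times. *Hars2* was lowest at 4 d (0.672-fold), *Tars2* at 3 d (0.678-fold) and *Vars2* at 8 d (0.785-fold). *Iars2* had folds of 1.43 and 0.979 at 4 and 8 d. *Nars2* and *Lars2* lay between 0.858-fold and 1.23-fold at all times.

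The symbols left 13 pairs of a cytosolic and a mitochondrial gene for the same amino acid. At 4 d the fold of the cytosolic gene was larger than that of the mitochondrial gene in 10 of the 13 pairs, at 8 d in 8 and in 2i+LIF in 2. The cysteine pair was 3.08-fold and 0.731-fold at 4 d, the methionine pair 2.18-fold and 0.639-fold, the leucine pair 2.82-fold and 0.906-fold, and the tyrosine pair 1.39-fold and 0.470-fold. The arginine pair ran the other way, with *Rars* at 0.937-fold and *Rars2* at 2.14-fold. Each fold rests on the same arrays, so the pairs are not independent.

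**Figure D4:**
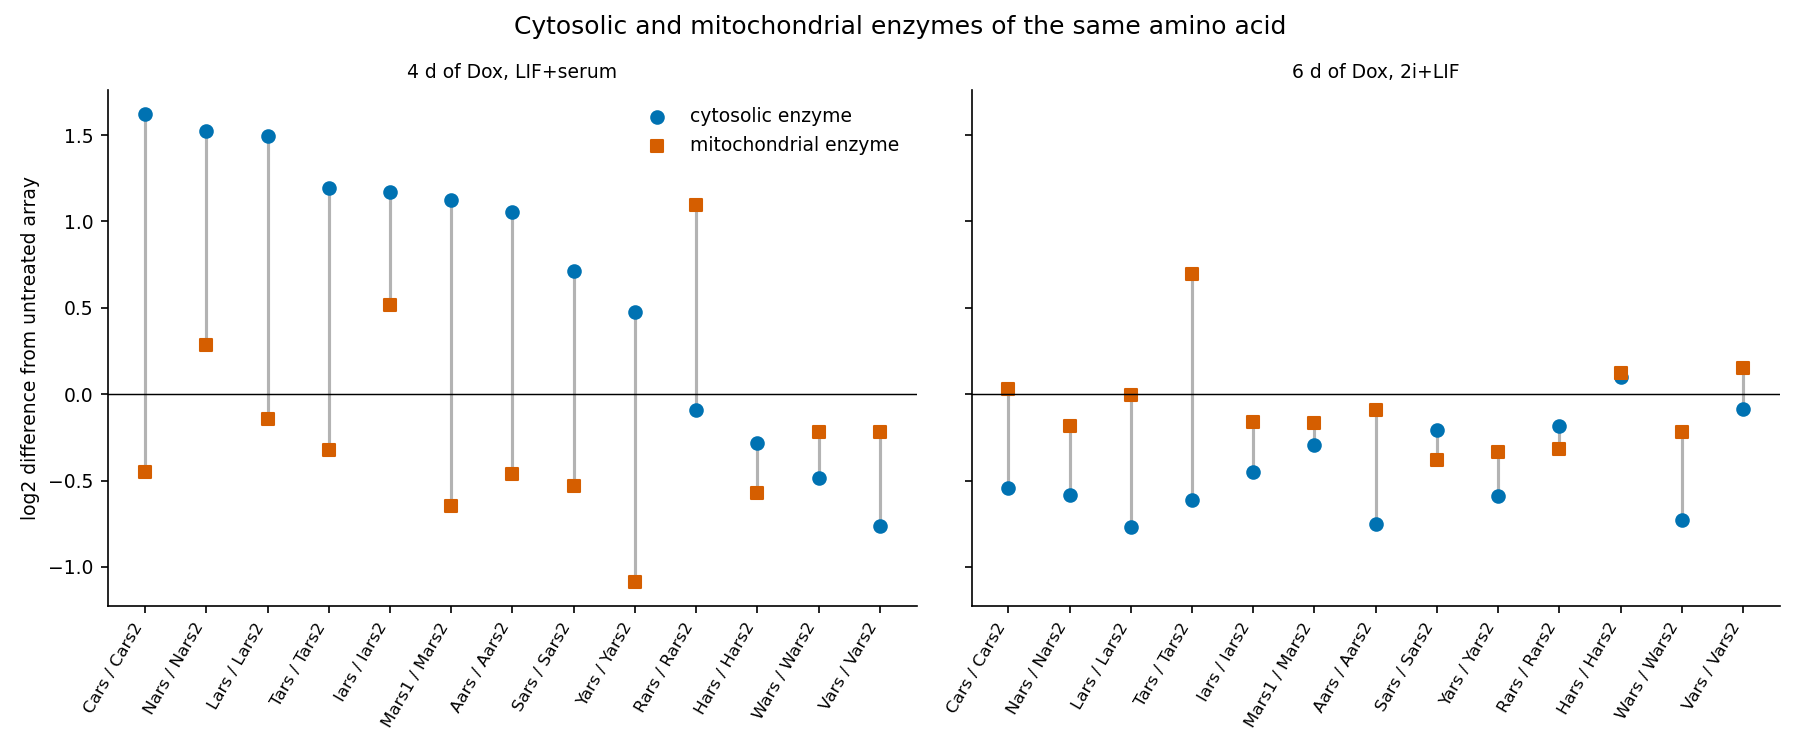
Log2 difference from the untreated array for the cytosolic (circles) and mitochondrial (squares) gene of 13 pairs for the same amino acid, at 4 d in LIF+serum (left) and at 6 d in 2i+LIF (right), with a line joining each pair. The cytosolic point is the upper one in 10 pairs on the left and in 2 on the right.

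In 2i+LIF the question was whether the loss of MAX moved the same genes in a medium that holds ESCs in their naive state. After 6 d of Dox, 0 cytosolic genes were at least 1.5-fold higher and 6 were lower (*Aars*, *Eprs*, *Lars*, *Tars*, *Wars* and *Yars*), with 6.66% of all genes higher and 7.47% lower. Their folds were 0.595, 0.380, 0.587, 0.653, 0.603 and 0.664. The median was 0.733 over the cytosolic genes, 0.668 over the 13 listed ATF4 targets, all of which were below 1, and 1.01 over all genes. At 6 d in LIF+serum the 13 had a median of 1.03, or of 1.52 against the first untreated array. With 1 array per condition, neither difference has a test.

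*Eprs* read 11.15 without Dox and 9.76 with Dox in 2i+LIF, and 10.26 and 10.13 in the second set of LIF+serum. *Tars2*, for the mitochondrial threonine enzyme, read 8.86 and 9.56, and at 1.62-fold was the only one of the 32 genes at least 1.5-fold higher with Dox in 2i+LIF. The mitochondrial median was 0.893 there. Of the 7 stress genes, *Ddit3* (0.116-fold), *Trib3* and *Psat1* were at least 1.5-fold lower, and the median was 0.670.

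The untreated cells themselves differed between media. In 2i+LIF, 14 of the 19 cytosolic genes were at least 1.5-fold above the mean of both untreated LIF+serum arrays and 1, *Hars*, was below (0.600-fold), against 14.6% and 19.8% of all genes. The median fold was 1.91 over the cytosolic genes, 2.01 over the listed ATF4 targets, 0.958 over the mitochondrial genes and 0.927 over all genes. *Nars* was 2.66-fold, *Cars* 2.64-fold, *Wars* 2.63-fold and *Eprs* 2.54-fold the LIF+serum level, while *Yars2* was 0.354-fold. Some of these values depended on the probe set. A second probe set of *Yars2* read 8.04 in untreated 2i+LIF, with 8.59 and 8.43 on the untreated LIF+serum arrays. For *Eprs* a second one read 10.40, with 9.31 and 10.70, and for *Hars* 9.25, with 9.14 and 9.59. That of *Nars* read 12.71, with 10.88 and 11.26. All 7 stress genes were at least 1.5-fold higher, with a median of 4.12. Whether the arrays of both media were normalized together is not stated, and medium and array set cannot be told apart.

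With Dox in 2i+LIF, the level of several of these genes lay between the untreated level of 2i+LIF and the lower one of LIF+serum. *Nars* read 12.55 without and 11.96 with Dox, and 10.82 and 11.45 on the untreated LIF+serum arrays. *Aars* read 12.52 and 11.77, with 11.22 and 11.39 in LIF+serum. *Lars* read 11.59 and 10.82, with 10.28 and 11.03, so that its level with Dox in 2i+LIF was below the second untreated array.

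Over all 8 arrays 5.33% of all genes fell and 5.75% rose, while of 17 other genes of tRNA charging 3 fell and 0 rose. They were *Xpot*, which exports tRNA from the nucleus (slope -0.16, SE 0.03, adjusted p = 0.0178), *Dtd1*, which removes D-amino acids from tRNA (slope -0.19, SE 0.04, adjusted p = 0.0172), and *Aarsd1*, an editing domain protein related to the alanine enzyme (slope -0.14, SE 0.04, adjusted p = 0.0390), all from limma. *Xpot* read 10.58, 10.26, 10.69, 9.91 and 9.95, then 10.81, 9.86 and 9.50. *Dtd1* read 9.15, 8.73, 9.10, 8.08 and 8.12, then 9.03, 7.89 and 7.74. The median fold of the 17 genes at 4 d was 0.811, with 1 gene at least 1.5-fold higher (*Sepsecs*, 2.24-fold, of selenocysteine synthesis) and 7 lower. Of all genes 14.6% were higher and 14.6% lower at 4 d.

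Probe sets of 1 gene gave the same side of 1 in most cases. Of 33 further probe sets of the 32 genes, 31 lay on the same side as the one used at 4 d, 23 at 8 d and 27 in 2i+LIF. Of the 14 whose mean was at least 8, it was 14, 11 and 13. *Farsb*, *Qars* and *Wars* (suffix x) and *Aars* and *Iars* (suffix s) were read from probe sets whose suffix marks possible binding to other transcripts. RNA quality and markers of other cell types also differed between both sets, as given above, and their part in the lower values of 6 and 8 d was not tested.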

How the data were processed

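RNA of 10 samples was measured on Affymetrix mouse genome arrays. The values deposited by the authors are log2 values after background subtraction and robust multi-array analysis (RMA). RMA and affy are the tools in the submitters' processing notes. The sources used here give neither their versions nor which arrays were normalized together. RMA understates differences between weak signals, which bears on dim probe sets such as that of *Mars2*. The value table held 0 columns that went unused.

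Slopes per day over the 8 LIF+serum arrays were fitted by limma 3.58.1 in R 4.3.3 (lmFit, eBayes), array set being a covariate, with 5 residual and 4.81 prior degrees of freedom and Benjamini-Hochberg adjustment over 45037 probe sets at 0.05. For the first set alone these were 3 and 5.37. Folds are ratios made from log2 differences to the set's own untreated array, counted at 1.5-fold. Genes were named from a table of GEO's platform annotation, only where it gave 1 symbol, and all 32 matched RefSeq by Entrez ID. Python 3.11.15, pandas 2.3.3, numpy 2.4.6 and matplotlib 3.10.9 were used for the rest.

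Values on every array and the test were given for genes past the threshold and, where fewer than 6 of a class passed, for up to 6 with the largest slopes. Others given in full were chosen after their values were seen. The genes, lists and tests were chosen with earlier results of these data known. In data simulated for the trend over 8 arrays, 78 of 100 slopes of 0.25 and 98 of 100 slopes of 0.5 were found, and 8 of the 45037 probe sets were called falsely. In data simulated for the first set, slopes of 0.25 and 0.5 were found for 0 of 100 each among 45037, so that fit misses slopes of this size where few probe sets change. Alternatives changed the set term, the time scale, the eBayes prior, the normalization, the filter on dim probe sets, the choice of probe set, the untreated reference and the fold threshold, or left out arrays. The number of arrays limits the precision here. Promoters of *Cars*, *Hars*, *Hars2*, *Lars*, *Nars*, *Rars*, *Vars* and *Wars* were not analysed here.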

Additional observations from a re-analysis of the deposited data

Results flagged for a closer look

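In 8 genes the log2 difference with Dox in 2i+LIF had the opposite sign to that at all 6 Dox times in LIF+serum. With 1 array per condition this was not tested, and the share over all genes is not given, so the count is not read as unusual. A second probe set broke the pattern for *Hars2* (0.815-fold in 2i+LIF), *Vars2* (1.33-fold at 6 d), *Tars2* (1.02-fold at 8 d) and *Iars* (0.987-fold at 8 d). For *Cars2* and *Qars* the next brightest probe set kept it, but dimmer ones broke it. One of *Qars* was 1.02-fold at 8 d, and one of *Cars2* read 4.61 at 1 d, with 4.55 untreated. *Lars* and *Rars2* had only 1 probe set. *Iars* (-0.45 in 2i+LIF, 0.04 to 1.17 in LIF+serum), *Lars* (-0.77, with 0.06 to 1.49) and *Rars2* (-0.32, with 0.39 to 1.10) were lower in 2i+LIF. *Tars2* (0.69, with -0.56 to -0.00145), *Vars2* (0.15, with -0.35 to -0.21), *Hars2* (0.12, with -0.57 to -0.14), *Qars* (0.05, with -0.47 to -0.02) and *Cars2* (0.03, with -0.50 to -0.43) were higher. Of the 32 genes only these 8 were set apart in this way, and in 5 of them (*Cars2*, *Hars2*, *Iars*, *Qars* and *Vars2*) the difference in 2i+LIF was smaller in size than that between both untreated LIF+serum arrays.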

How the results depend on the processing

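The counts of the trend depended on which arrays were used. The first array set alone gave 7 cytosolic genes that rose (0 over all arrays), 1 mitochondrial gene that rose, 1 that fell (3 over all arrays), and median slopes of 0.12 (cytosolic) and -0.094 (mitochondrial). With time as log2(day + 1), 1 mitochondrial gene rose, *Rars2*. With the quadratic term, chosen after seeing the data, 10 cytosolic genes passed. Averaging all probe sets of a gene gave a mitochondrial median slope of -0.039. Leaving out 1 array at a time gave 0 to 1 cytosolic genes that fell (*Kars*, without Dox 8 d), 0 to 1 mitochondrial genes that rose (*Rars2*, without Dox 8 d), 0 to 3 that fell (0 without the second untreated array), a cytosolic median slope of -0.013 to 0.063 and a mitochondrial one of -0.085 to -0.048. In the first set, leaving out 1 array gave 0 to 7 cytosolic genes that rose (0 without untreated, Dox 3 d or Dox 4 d), 0 to 1 that fell (*Farsa*, without Dox 1 d), and 0 to 1 mitochondrial genes in each direction (1 and 1 only in the fit without Dox 2 d). The cause of these changes was not tested.

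Slopes of 10 genes, none of them past the threshold, changed sign. In the first set alone these were *Eprs* (0.08), *Gars* (0.12), *Hars* (-0.06), *Lars2* (-0.00473), *Rars* (-0.03), *Sars* (0.22) and *Yars* (0.18). Without the array set term they were *Eprs* (0.03), *Hars* (-0.02), *Nars2* (-0.02) and *Vars* (0.02). After a further quantile normalization they were *Eprs* (0.00106), *Nars2* (-0.00149) and *Qars* (0.00187), with log2(day + 1) *Eprs* (0.01) and *Hars* (-0.00376), and with the mean of all probe sets *Hars* (-0.0037) and *Lars2* (-0.01). Leaving out 1 array gave ranges of -0.03 to 0.05 for *Eprs*, -0.07 to 0.06 for *Gars*, -0.03 to 0.02 for *Hars*, -0.01 to 0.06 for *Nars2*, -0.05 to 0.03 for *Qars*, -0.01 to 0.03 for *Rars*, -0.12 to 0.12 for *Sars* and -0.05 to 0.13 for *Yars*.

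Of the folds, a threshold of 2 left 1 cytosolic gene lower at 4 d, 1 at 8 d and 1 in 2i+LIF, and 0 higher and 0 lower at 6 d. At 6 d (1 higher and 3 lower), 7 cytosolic genes were higher and 6 lower against the first untreated array, 3 and 6 against the mean of both, and 2 and 1 after quantile normalization. Against the first untreated array 2 cytosolic genes were higher and 5 lower at 8 d, and 5 were lower against the mean of both. The cytosolic median log2 difference between untreated 2i+LIF and LIF+serum, 0.93, was 0.69 after quantile normalization, 0.79 with the mean of all probe sets and 0.72 against the second untreated array. The mitochondrial one was -0.19 after quantile normalization. With the mean of all probe sets the mitochondrial median was -0.25 at 6 d, -0.10 at 8 d and -0.09 in 2i+LIF with Dox, and it was -0.32 at 6 d against the first untreated array and -0.44 at 8 d against the mean of both. No paired analysis was possible because each Dox time has 1 array and the groups share fewer than 2 replicate numbers.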
